A study of Bos taurus with 14 samples.

Results

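CSN2 encodes β-casein, and it is the gene by whose alleles the cows of this study were grouped. It was followed as a single gene, identifier ENSBTAG00000002632, chosen by name and identifier and not by its values, out of 36075 identifiers in the deposited tables. Earlier results of these data were known when the gene and its references were chosen. The 3 other casein genes, CSN1S1 (ENSBTAG00000007695), CSN1S2 (ENSBTAG00000005005) and CSN3 (ENSBTAG00000039787), served as references. RNA of milk fat globules was sequenced from 14 purebred Holstein cows of a commercial farm, which shared rations and management. 7 cows were homozygous for the A1 form of β-casein (A1A1) and 7 for the A2 form (A2A2), with 1 library per cow. The study asked how the globule transcriptome differs between these genotypes. The labels give neither the age, the parity nor the stage of lactation of the cows, and all cows came from the same farm.

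Caseins are the phosphoproteins that form the micelles of milk, in which they carry calcium phosphate. β-casein is held in the micelle together with the αs1- and αs2-caseins (CSN1S1, CSN1S2), while κ-casein (CSN3) coats the surface and keeps micelles from aggregating. The A1 and A2 proteins differ by an amino acid, histidine in A1 and proline in A2, at a site where digestion of the A1 form can release an opioid-like peptide, β-casomorphin. In the secretory cell of the udder, casein genes are switched on by prolactin through the transcription factor STAT5, with glucocorticoids and insulin. Milk fat globules leave that cell wrapped in its membrane and enclose some cytoplasm, which brings casein mRNA into the globule. In RefSeq's table for the cattle assembly ARS-UCD2.0 the 4 casein genes lie in a cluster, in the order CSN1S1, CSN2, HSTN, STATH, CSN1S2, PRR27, ODAM and CSN3, so that CSN1S1 and HSTN are the neighbours of CSN2. No coordinates are given because the build of the deposited tables is not given in the sources used here.

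Total counts per library ran from 16116849 to 22994197, so that counting error was small beside the differences between cows. The widest exact binomial 95% interval of a CSN2 share, in A1A1 9, spanned 1.25% of that share, and such intervals cover counting error only. The library A1A1 9 stood apart from the other 13. Its casein counts were low, and 51.8% of its counts came from 12 abundant genes that have the length of mitochondrial protein or rRNA genes, called mitochondrial-length genes here. In the other libraries these took 5.12 to 33.0%. A suffix _2 closes the descriptions of 4 libraries, A1A1 10, A1A1 15, A2A2 5 and A2A2 13, and its meaning is not stated. Results that rest on these libraries are given with and without them. Counts per gene do not separate alleles, so the genotype labels could not be checked against the CSN2 counts.

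CSN2 was among the most abundant transcripts of the globules and held place 3 of all genes by total counts, with 6.72% of them. By counts it was at place 1 in 5 libraries, place 2 in 4, place 3 in 1, place 4 in 3 and place 22 in A1A1 9. CSN2 took 4.28% of the counts in A1A1 2, 5.84% in A1A1 3, 7.48% in A1A1 7, 4.37% in A1A1 8, 0.528% in A1A1 9, 8.73% in A1A1 10 and 9.64% in A1A1 15. In A2A2 it took 9.42% in cow 1, 7.821% in cow 4, 7.99% in cow 5, 6.29% in cow 6, 4.45% in cow 11, 8.54% in cow 13 and 8.84% in cow 17. The genotypes overlapped over most of their range, and the highest and the lowest share both belonged to A1A1 cows. In A1A1 the share spread from 0.528 to 9.64%, an 18.3-fold range, against a 2.12-fold range from 4.45 to 9.42% in A2A2. Without A1A1 9 the range over all 13 remaining cows was 2.25-fold.

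**Figure D1:**
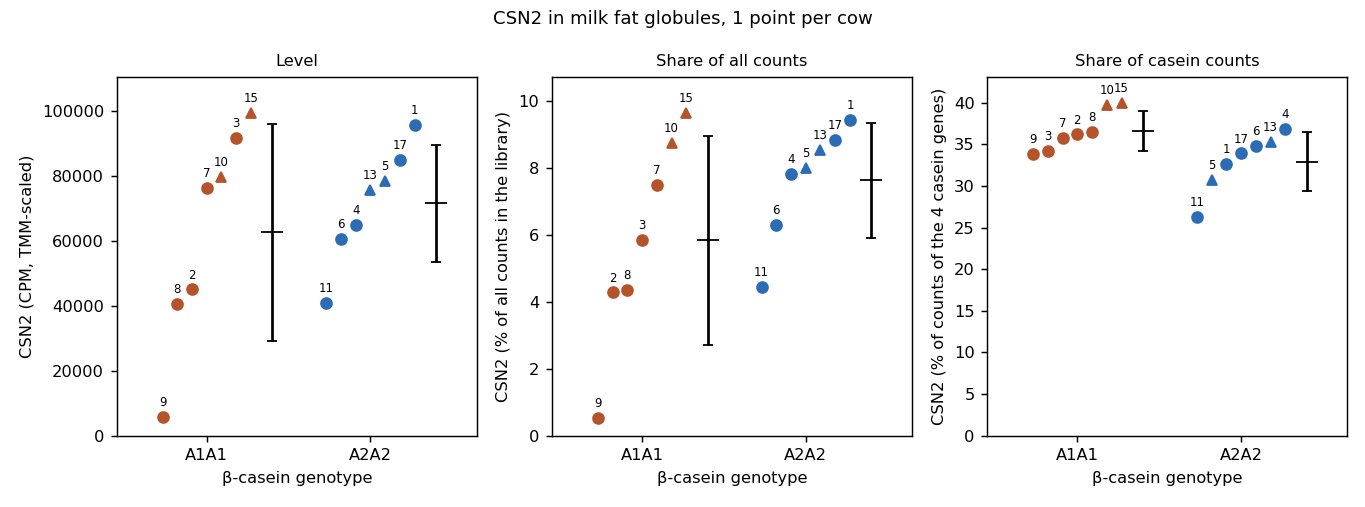
CSN2 in each cow as CPM scaled by TMM factors, as percent of all counts and as percent of the counts of the 4 casein genes, with points in rising order within a genotype and labelled by sample number. Triangles are libraries whose description ends in _2, and bars are mean ± SD of 7 cows. A1A1 9 lies far below the other cows at 5828 CPM but not in its share of casein counts, which was 33.9%.

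The level of CSN2 was not detectably different between the genotypes. In A1A1 its CPM, scaled by TMM factors, was 62664 ± 33426, beside 71568 ± 17937 in A2A2 (mean ± SD of 7 cows). In A1A1 the CPM had a lowest value of 5828, a median of 76222 and a highest value of 99479, and in A2A2 it had 40831, 75582 and 95580. The medians thus lay closer together than the means, and the lower A1A1 mean came with the low value of A1A1 9. In edgeR's quasi-likelihood test the log2 fold change, A2A2 over A1A1, was 0.19 with an adjusted p of 0.919. With a threshold of 0.05 on the adjusted p, 0 of 12320 genes were called, which is 0.00%. At an unadjusted p under 0.05 it found 411 genes (3.34%), and CSN2, with an unadjusted p of 0.669, was not among them. CPM values did not overlap between the genotypes for 5 genes (0.0406%), and those of CSN2 overlapped. DESeq2 called 12 genes and limma voom 0, with CSN2 among neither (DESeq2 adjusted p = 0.925, voom adjusted p = 0.679).

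On the log2 CPM scale the mean of CSN2 was 15.55 ± 1.43 in A1A1 and 16.08 ± 0.40 in A2A2 (SD, 7 cows each). The difference was 0.53, and the exact permutation test bounded it at -0.46 and 1.76 (95% interval; permutation p = 0.462, two-sided, adjusted p = 0.692 over 6 CSN2 measures). Without A1A1 9 it was 0.023, with an interval of -0.56 to 0.60 (exact permutation p = 0.935, adjusted p = 0.971), which as a ratio is 0.676 to 1.52. The edgeR log2 fold change without this cow was -0.010. In the 10 libraries without the suffix the difference in log2 CPM was 0.83 (exact permutation p = 0.325), and in the 4 with it -0.21. The 10 libraries include A1A1 9, at a log2 CPM of 12.51, so these values do not contrast the suffix alone.

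The share of all counts was 5.84 ± 3.12% in A1A1 and 7.62 ± 1.71% in A2A2 (SD, 7 cows each). The difference of 1.78 percentage points had a 95% interval of -1.10 to 4.70 (exact permutation p = 0.210, adjusted p = 0.42). Without A1A1 9 it was 0.898 points (exact permutation p = 0.416, adjusted p = 0.831). Mitochondrial-length genes held 26.7 ± 12.8% of the A1A1 counts beside 12.1 ± 5.20% of those in A2A2, and a larger share of these leaves less for every other gene. With them taken out of the total, CSN2 had 7.58 ± 3.86% in A1A1 and 8.63 ± 1.73% in A2A2 (difference 1.05 points, exact permutation p = 0.540). In the 10 libraries without the suffix the share of all counts was 4.50% in A1A1 and 7.36% in A2A2 (exact permutation p = 0.0714). That A1A1 mean includes A1A1 9 with 0.528%. In the 4 libraries with it the order was turned, with 9.19% in A1A1 and 8.26% in A2A2, 2 cows each, where the smallest possible p is 0.333.

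In the deposited FPKM, CSN2 was the second of the 4 casein genes in each of the 14 cows, though its place below CSN1S1 depends on a gene length that is in doubt. FPKM values divide by the gene length the authors used, which counts and FPKM together imply to be 1338 bases for CSN2, 797 for CSN1S1, 1025 for CSN1S2 and 1192 for CSN3. The length for CSN1S1 appears short for the mRNA of that gene, and too short a length would make its FPKM too high. The deposited FPKM of CSN2 was 46505 ± 24813 in A1A1 and 53611 ± 13533 in A2A2 (SD, 7 cows each). CSN1S1 had 77791 ± 41087 and 91227 ± 23621, CSN3 had 17914 ± 8807 and 39613 ± 13880, and CSN1S2 had 21820 ± 12641 and 25101 ± 7913 FPKM. CSN1S1 stood above CSN2 in 14 of 14 cows, and CSN2 stood above CSN1S2 and above CSN3 in 14 of 14.

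**Figure D2:**
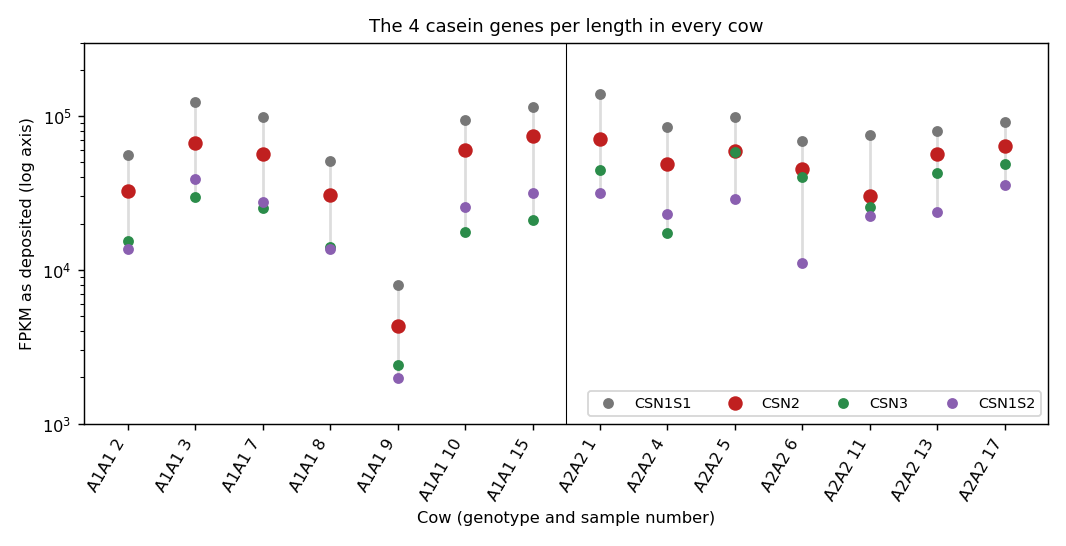
Deposited FPKM of the 4 casein genes in every cow on a log axis, 1 column of points per cow, with the line between A1A1 and A2A2. CSN2 is second in every column, down to A1A1 9 with 4290 FPKM, and in A2A2 5 CSN3 reaches 58081 FPKM beside 58806 for CSN2.

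Within cows CSN2 was 0.587-fold the FPKM of CSN1S1 (95% interval 0.539 to 0.635), a value set by the doubtful length of CSN1S1 as well as by the counts. It was 2.18-fold that of CSN1S2 (1.91 to 2.50) and 1.85-fold that of CSN3 (1.46 to 2.34). Each of these 3 differences had an exact sign-flip permutation p of 0.000122, the smallest that 14 cows can give, and an adjusted p of 0.000146 over the 6 pairs of casein genes. CSN1S2 and CSN3, the neighbours at the lower end of the order, did not differ beyond their spread (ratio 0.847, interval 0.643 to 1.10, exact sign-flip permutation p = 0.217, adjusted p = 0.217). The place of CSN2 below CSN1S1, with its p, rests on the gene lengths. In counts, which are not divided by length, the ratio of CSN2 to CSN1S1 had a median of 0.990 over 14 cows and a range from 0.673 in A2A2 11 to 1.20 in A2A2 13.

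CSN2 followed the αs-casein genes closely from cow to cow. Across the 14 cows log2 CPM of CSN2 and CSN1S1 had Pearson's r = 0.98 (permutation p = 1e-05, the smallest 100000 resamples can give) and Spearman's rho = 0.93 (permutation p = 3e-05). Adjusted over 18 relations these p-values were 0.00018 and 0.00027. Without A1A1 8 and 9, the cows farthest from the median of CSN1S1, r was 0.83 (permutation p = 0.0006), and without A1A1 9 alone it was 0.88. Within A1A1, with A1A1 9 included, r was 0.998 (exact permutation p = 0.000794). Within A2A2, r was 0.70 (exact permutation p = 0.0988) and rho was 0.89 (exact permutation p = 0.0123), so that in A2A2 the order of the cows was shared but r did not pass. A2A2 11 stood off the others there, with 40831 CPM of CSN2, the lowest in its genotype, and 60700 CPM of CSN1S1.

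For CSN1S2 the relation to CSN2 had r = 0.95 and rho = 0.92 over 14 cows (permutation p = 0.00018 and 2e-05, adjusted p = 0.00081 and 0.00027). Without A1A1 9 and A2A2 6 it had r = 0.86 (permutation p = 0.0003). Within A2A2, r was 0.52 (exact permutation p = 0.226) and rho was 0.93 (exact permutation p = 0.00675). A2A2 6 was the exception in level, with 11289 CPM of CSN1S2 against 23002 to 36182 in the other A2A2 cows, while its CSN2 was 60580 CPM. For CSN3 the relation was r = 0.86 and rho = 0.56 over 14 cows (permutation p = 0.00323 and 0.0409, adjusted p = 0.00489 and 0.0491). It rested on A1A1 9, since without that cow r was 0.49 (permutation p = 0.0915) and rho 0.45 (permutation p = 0.125). Without A1A1 9 and A2A2 5, the cows farthest from the median of CSN3, r was also 0.49 (permutation p = 0.107). Within A1A1, with A1A1 9 included, r was 0.97 (exact permutation p = 0.00476) and within A2A2 0.59 (exact permutation p = 0.164). The rho within A2A2 was 0.75 (exact permutation p = 0.0663). With the mean of its genotype subtracted from each log2 CPM, r over all cows was 0.91, again with A1A1 9 included. In the 10 libraries without the suffix, r was 0.98 for CSN1S1, 0.95 for CSN1S2 and 0.93 for CSN3 (permutation p = 9e-05, 0.00134 and 0.00243). These 10 libraries also include A1A1 9. The levels compared within a library share its scaling factor.

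**Figure D3:**
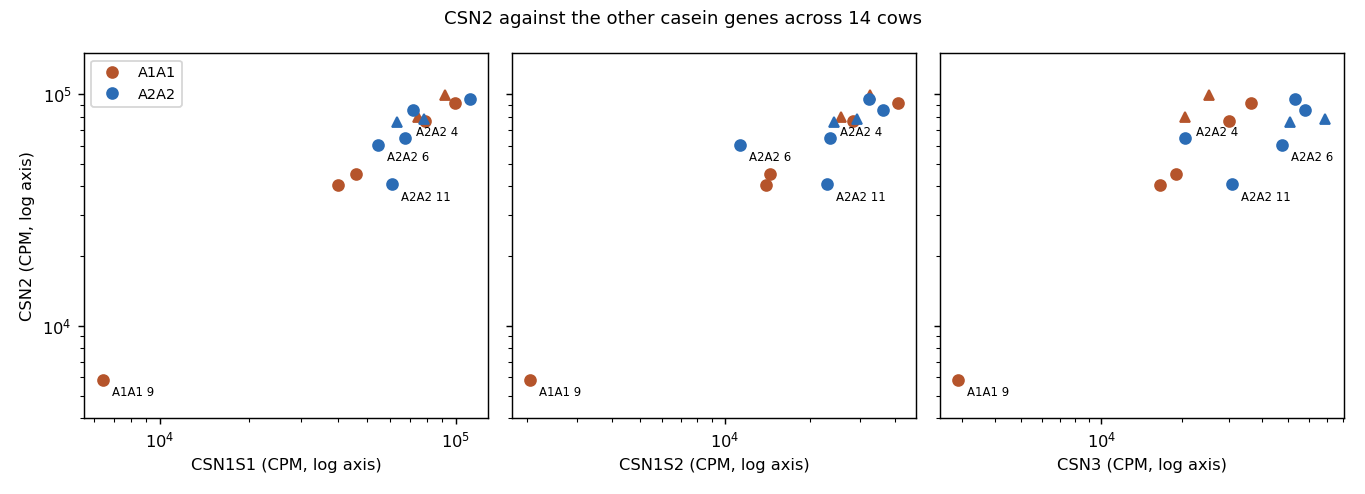
CPM of CSN2 against CPM of CSN1S1, CSN1S2 and CSN3 on log axes, 1 point per cow, coloured by genotype, with triangles for libraries whose description ends in _2 and 4 cows labelled. A1A1 9 lies alone at the lower left of each panel, and in the panel of CSN3 the A2A2 cows other than A2A2 4 lie to the right of A1A1 cows of like CSN2 level.

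In A1A1 9 all 4 casein genes were low together. CSN2 had 5828 CPM, which is 6.96-fold below the next lowest cow and 13.1-fold below the median of the other 13. The same fold below the median, which pools both genotypes, was 11.2 for CSN1S1, 12.5 for CSN1S2 and 10.6 for CSN3. CSN2 held 33.9% of the casein counts of A1A1 9, the lowest share in its genotype. The other A1A1 cows had 34.2 to 39.9% and the A2A2 cows 26.3 to 36.8%. The caseins together took 1.56% of the counts of A1A1 9, against 11.83 to 24.1% in the other A1A1 cows and 16.9 to 28.8% in A2A2. In bulk RNA, fewer globules or cells that carry casein mRNA and less casein mRNA in each cannot be told apart.

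Relative to the αs-caseins, no genotype difference in CSN2 was detected. The ratio of CSN2 to CSN1S1 counts was 0.978 in A1A1 2, 0.921 in A1A1 3, 0.969 in A1A1 7, 1.01 in A1A1 8, 0.910 in A1A1 9, 1.07 in A1A1 10 and 1.08 in A1A1 15. In A2A2 it was 0.856 in cow 1, 0.961 in cow 4, 1.00 in cow 5, 1.10 in cow 6, 0.673 in cow 11, 1.20 in cow 13 and 1.18 in cow 17. The A1A1 cows lay within the range of the A2A2 cows. The A2A2 ratio was 0.990-fold that of A1A1, with a 95% interval of 0.828 to 1.17 (exact permutation p = 0.914, adjusted p = 0.967). For CSN1S2 the ratio of counts ran from 2.25 over a median of 2.91 to 3.13 in A1A1 and from 1.78 over 2.77 to 5.37 in A2A2. The A2A2 ratio was 1.01-fold that of A1A1 (interval 0.768 to 1.34, exact permutation p = 0.967, adjusted p = 0.967). Without the suffix libraries the A2A2 ratio was 0.979-fold for CSN1S1 and 1.03-fold for CSN1S2 (exact permutation p = 0.881 and 0.865), and within them 1.02-fold and 0.940-fold. A shift of CSN2 against CSN1S1 beyond 1.17-fold upward or 0.828-fold downward lies outside that interval.

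Relative to κ-casein, CSN2 was lower in A2A2 than in A1A1, but the adjusted call was lost in most of the alternatives run. The ratio of CSN2 to CSN3 counts was 2.37 in A1A1 2, 2.53 in A1A1 3, 2.53 in A1A1 7, 2.45 in A1A1 8, 2.00 in A1A1 9, 3.86 in A1A1 10 and 3.94 in A1A1 15. In A2A2 it was 1.80 in cow 1, 3.16 in cow 4, 1.14 in cow 5, 1.27 in cow 6, 1.33 in cow 11, 1.48 in cow 13 and 1.47 in cow 17. In A2A2, 6 of 7 cows lay below the lowest A1A1 cow, and A2A2 4 lay above 5 of the A1A1 cows. The A2A2 ratio was 0.576-fold that of A1A1, with a 95% interval of 0.413 to 0.826. On the log2 scale this is a difference of -0.80 (exact permutation p = 0.00583, two-sided, adjusted p = 0.0350 over 6 CSN2 measures). Leaving out 1 library kept the direction in 14 of 14 cases but ended the adjusted call in 12 of them (adjusted p 0.0559 to 0.0839). It held without A1A1 9 (0.547-fold, exact permutation p = 0.00583, adjusted p = 0.0350) and without A2A2 4 (adjusted p = 0.00699). Between medians the log2 difference was -0.78 (exact permutation p = 0.0350, adjusted p = 0.210).

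**Figure D4:**
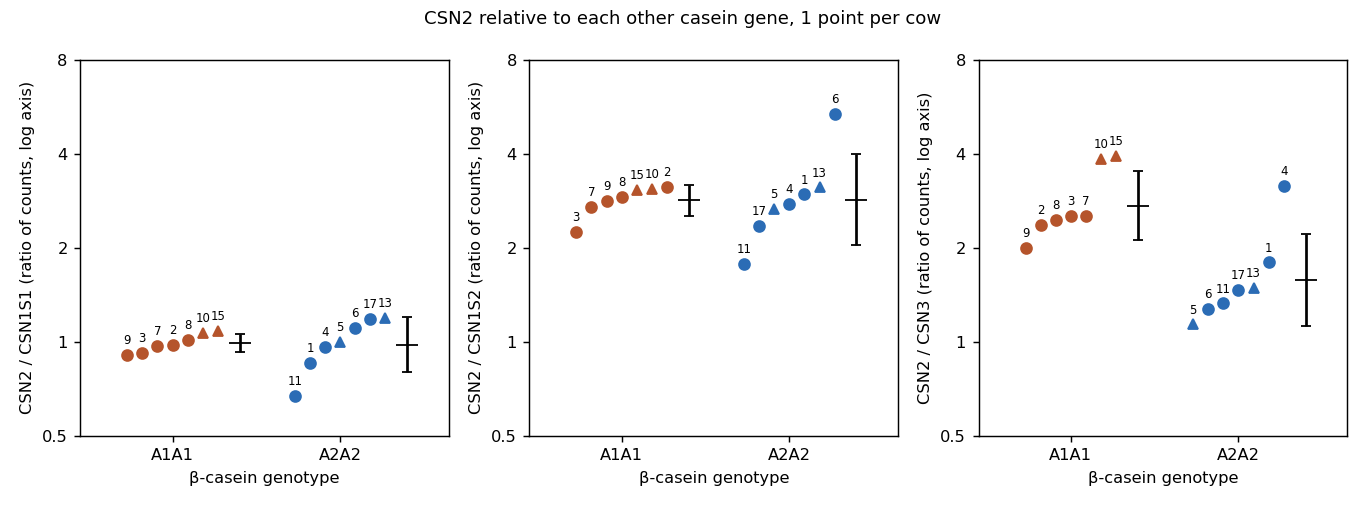
Ratio of CSN2 counts to the counts of CSN1S1, CSN1S2 and CSN3 in each cow on a log axis, with sample numbers, triangles for libraries whose description ends in _2, and bars for the geometric mean and 1 SD of the log2 ratio in 7 cows. The A1A1 cows lie within the A2A2 range for the αs-caseins, while for CSN3 6 of 7 A2A2 cows lie below all A1A1 cows and A2A2 4 lies at 3.16.

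The levels behind this ratio differed more for CSN3 than for CSN2. CSN3 had 21540 ± 10674 CPM in A1A1 and 47124 ± 16430 CPM in A2A2 (SD, 7 cows each), beside the 62664 and 71568 CPM of CSN2. The edgeR log2 fold change was 1.13 for CSN3 and its adjusted p, taken over all genes, was 0.856, so that the level of CSN3 by itself did not pass. The higher CSN3 of A2A2 was known from an earlier look at these data, and the ratio is not independent support for it. A2A2 4, whose ratio was A1A1-like in size, had 20553 CPM of CSN3, the lowest value of its genotype, with a CSN2 of 64943 CPM.

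The difference in the CSN2 to CSN3 ratio was larger in the libraries with the suffix. In the 10 libraries without it the A2A2 ratio was 0.717-fold that of A1A1 (5 cows each, exact permutation p = 0.0794). In the 4 libraries with it the ratio was 0.333-fold (2 cows each), where no p under 0.333 is possible. With cows exchanged only within the libraries with or without the suffix, a test chosen after seeing the data, p was 0.0132 and adjusted p 0.0794 (exact permutation). The direction was the same in both sets, but the adjusted call was lost.

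Among casein counts, CSN2 took 36.6 ± 2.41% in A1A1 and 32.9 ± 3.51% in A2A2 (SD, 7 cows each). The difference of -3.66 percentage points had a 95% interval of -7.28 to -0.242. It had an exact permutation p of 0.0373 and did not pass after adjustment over the 6 measures (adjusted p = 0.112). A2A2 11 had the lowest share with 26.3%, A1A1 15 the highest with 39.9%, and 6 of 7 A2A2 cows lay below the A1A1 median of 36.2%. The difference was -2.41 points in the 10 libraries without the suffix (exact permutation p = 0.230) and -6.79 points in the 4 with it. This share and the ratio to CSN3 hold the same CSN2 and CSN3 counts and are not separate observations. In FPKM, so per length, CSN2 was 28.0 ± 1.92% of the casein sum in A1A1 and 25.5 ± 2.99% in A2A2 (exact permutation p = 0.0839).

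The share of CSN2 among caseins varied far less between cows than its level. The coefficient of variation over 14 cows was 39.0% for CSN2 CPM and 9.96% for its share of casein counts. The casein sum holds CSN2 itself, which narrows the spread of that share. For the ratio of CSN2 counts to those of another casein the coefficient over 14 cows was 13.7% with CSN1S1, 27.4% with CSN1S2 and 41.1% with CSN3. Within A2A2 it was 25.1% for CSN2 CPM, beside 18.9, 37.7 and 41.6% for these ratios. There the ratio to CSN1S2 varied more than the level. Within A1A1, with A1A1 9 included, it was 53.3% for CSN2 CPM, beside 6.79, 10.7 and 27.2%. By this coefficient the ratio to CSN3 did not vary less than the level over 14 cows or within A2A2, but it did within A1A1. By the SD of log2 values over 14 cows it varied less, with 0.59 against 1.05 for the level. Without A1A1 9 it varied more, with 0.61 against 0.45. The SD of log2 CPM was 1.05 for CSN2 over 14 cows and 0.45 without A1A1 9. Among the 50 genes with the most counts, CSN2 was at place 16 from the most to the least variable, and at place 33 without A1A1 9. The median SD of these 50 genes was 0.90 over 14 cows and 0.57 without A1A1 9. Without that cow the spread of CSN2 lay below that median, and with it above. The log2 SD without A1A1 9 was 0.42 for CSN1S1, 0.56 for CSN1S2 and 0.69 for CSN3.

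The gene whose log2 CPM was most like that of CSN2 over the 14 cows was ENSBTAG00000027126, with Pearson's r = 0.99. It is 2025 bases long and at place 448 by counts, and without A1A1 9 its r was 0.94, the second highest of 12319 genes. CSN1S1 was second with r = 0.98. At place 3 was ENSBTAG00000014357, 714 bases long, with r = 0.97, and next came genes of 4154 and 983 bases with r = 0.97 and 0.96. Without A1A1 9 these 3 had r = 0.82, 0.80 and 0.73, at places 67, 90 and 257. CSN1S2 stood at place 22 and CSN3 at place 209, and without A1A1 9 at places 134 and 1613. The median r over all 12319 other genes was -0.0045, and 91 of them had an r above 0.9, against 5 without A1A1 9. The 12 mitochondrial-length genes had r between -0.68 and -0.48, and between -0.51 and -0.31 without A1A1 9. These correlations describe 14 libraries that share scaling factors and carry no test. Of the 36075 identifiers, 0 could be matched to a gene symbol, so the genes other than the caseins are given without names. For the same reason, genes of the prolactin and STAT5 pathway and markers of leucocytes and other milk cells were not analysed here, and their part in the results was not tested.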

How the data were processed

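Libraries were paired-end mRNA libraries from total RNA of frozen milk, per the labels' protocols. The deposited tables hold unnormalized counts, and the authors' FPKM, for each gene and cow. STAR, cutadapt 4.0, edgeR 4.0.16 and FastQC 0.11.9 are listed, with no role, in the submitters' processing notes. How reads were counted, and on which genome build and annotation, is not given in the sources used here.

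Genotype and sample number came from the sample titles. The test across genes was edgeR's robust quasi-likelihood F test (version 4.0.16 in R 4.3.3, TMM after filterByExpr, two-sided, Benjamini-Hochberg over 12320 genes, threshold 0.05). log2 CPM used TMM factors and a pseudocount of 0.5. 6 CSN2 measures were compared by exact permutation over 3432 splits, with 95% intervals by inversion of that test. Casein pairs were compared within cows by exact sign flips of log2 FPKM ratios, and across cows by correlations with 100000 resamples (exact within a genotype). The statistics used Python 3.11.15 and scipy 1.17.1. The edgeR test was checked on simulated data.

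Mitochondrial-length genes are, those among the 50 genes with most counts whose length equals that of a mitochondrial protein or rRNA gene in RefSeq's table (15 lengths sought, the gene with most counts kept for each, 12 found). For all 11711 genes with enough counts, implied lengths lay within 0.05 of a whole number. The casein genes were named by identifier, and genes most like CSN2 are the 5 with the highest Pearson r. The gene, its references and the lists were chosen with earlier results of these data known. Alternatives were RLE factors, library totals, other filters, DESeq2 1.42.0, limma 3.58.1 (voom, log2(FPKM + 1), log2(FPKM + 0.1)), the suffix as a covariate or left out, each library left out, medians and other pseudocounts. The p-values of differences weigh them against the spread between cows, with the cow as the unit.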

Additional observations from a re-analysis of the deposited data

Results flagged for a closer look

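Within each genotype, 9 measures of CSN2 and the caseins, or 18 sets of 7 values, were searched by Dixon's test for a cow standing apart, and 1 was found, where chance gives about 1 in 20 sets. A1A1 9 had a CSN2 log2 CPM of 12.51, and the next lowest A1A1 cow had 15.31. On the linear CPM scale and in shares of counts the same cow was lowest but was not found by this test. The same library had the largest share of mitochondrial-length genes (51.8%), and the part of either in the other was not tested.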

How the results depend on the processing

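The edgeR result for CSN2 did not pass in any of 26 alternatives (adjusted p 0.679 to 1.0). Its log2 fold change was at most 0.54, by limma on log2(FPKM + 0.1), and left-out libraries gave -0.010 (without A1A1 9) to 0.34. By library totals without TMM, CSN2 had 0.38, and the median over the genes tested was 0.18. With medians in place of means, the difference in CSN2 log2 CPM was -0.012. The ratio to CSN1S1 was then 0.032, that to CSN1S2 -0.072 and that to CSN3 -0.78 (log2; exact permutation p = 0.0350, adjusted p = 0.210 for CSN3). Without the suffix libraries the CSN3 ratio was -0.48 (adjusted p = 0.238), and with splits within the suffix sets -0.80 (adjusted p = 0.0794). Left-out libraries gave -0.96 to -0.71 for the CSN3 ratio (unadjusted exact permutation p 0.00117 to 0.0140, adjusted p 0.00699 to 0.0839), and the adjusted call held only without A1A1 9 or A2A2 4. They gave -0.063 to 0.076 for the CSN1S1 ratio, highest without A2A2 11, and -0.14 to 0.12 for the CSN1S2 ratio, lowest without A2A2 6. For the share of casein counts they gave -4.31 (without A2A2 4, adjusted p = 0.0402) to -2.56 points. The correlation of CSN2 with CSN3 was 0.49 to 0.89, lowest without A1A1 9 (adjusted p = 0.0924). The within-cow order of CSN2 kept direction and call in all alternatives run. None of them changed the gene lengths, on which its place below CSN1S1 rests. The correlations of CSN2 with CSN1S1 and CSN1S2 kept direction and call in the alternatives run for them. Those did not include the A2A2 cows alone, where r was 0.70 and 0.52 (exact permutation p = 0.0988 and 0.226). The causes of the changes between alternatives were not tested. No paired analysis was possible because the genotypes share no sample number.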

Other observations

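The ratios of CSN2 to the αs-caseins were spread more widely in A2A2 than in A1A1, a pattern noticed in the data and then tested. The SD of the log2 ratio to CSN1S1 was 0.098 in A1A1 and 0.295 in A2A2, and that of the ratio to CSN1S2 was 0.165 and 0.485 (n = 7 each). No difference was detected in the mean distance from the genotype's median (exact permutation p = 0.0577 for CSN1S1 and 0.227 for CSN1S2, adjusted p = 0.173 and 0.341 over 3 ratios). For CSN3 the SD was 0.370 in A1A1 and 0.490 in A2A2 (exact permutation p = 0.776, adjusted p = 0.776). The wide A2A2 ranges shared their lowest cow but not their highest. A2A2 11 was lowest in CSN2 against both αs-caseins, with 0.673 for CSN1S1 and 1.78 for CSN1S2. A2A2 13 was highest against CSN1S1 with 1.20, and A2A2 6 was highest against CSN1S2 with 5.37.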
